A study of Mus musculus with 21 samples.

Results

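The mitosis genes described here are 43 genes, chosen by name from the 23713 genes of a bulk RNA-seq count table, and all 43 were found and passed the filter on low counts in every comparison. They encode proteins that carry a cell from the end of G2 through the division of its chromosomes and cytoplasm, and they were picked by name with earlier results of these data known. RNA came from keratinocytes, the epithelial cells of the epidermis, released from mouse tail skin with trypsin and dispase. The study had 3 mouse models of basal cell carcinoma (BCC), a skin tumour in which Hedgehog signalling is switched on, each with tumour-bearing mice (BCC, 4 libraries) and its own tumour-free control mice (Con, 3 libraries).

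The SmoM2 model is named for an activated form of Smoothened, the membrane protein that turns on Hedgehog signalling, and its libraries were taken 29 days after tumour induction. The Gnas-eKO model is named for Gnas, which encodes the stimulatory G protein subunit that activates cAMP production, and was sampled at 42 days. The PKI model, whose name is not spelled out in the labels and is also that of the natural inhibitors of protein kinase A, was sampled at 57 days. The labels give one day per model for BCC and Con alike, and do not spell out eKO. The labels do not give strain, sex, age, the promoter that drove each transgene or deletion, or whether Con mice carried any of the alleles. Each model was one batch (A, B or C), so model, batch and day cannot be told apart, and every comparison of BCC with Con was made within a model. In the file headers the SmoM2 BCC libraries carry another name prefix (BF) than the SmoM2 Con libraries (TJ), so in SmoM2 the tumour and whatever that prefix stands for cannot be told apart. The labels do not say whether each library is 1 animal, and p-values then measure the spread between these libraries.

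Mitosis is driven by Cdk1 bound to A- and B-type cyclins and ends when the anaphase-promoting complex (APC/C), activated by Cdc20, marks cyclin B and securin (Pttg1) for destruction. Until every kinetochore is attached to the spindle, the spindle checkpoint kinases and Mad2l1 hold Cdc20 back. Kinesins and microtubule-binding proteins build the spindle, the chromosomal passenger complex with Aurkb corrects attachments, and centralspindlin, Prc1, Ect2 and anillin set up the cleavage furrow. Many of these genes are transcribed mainly in G2 and M, which makes their transcripts a common readout of dividing cells. In the epidermis, dividing cells lie mostly in the basal layer and in growing hair follicles.

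Library totals ranged from 16645858 to 22251132 counts, and 3 counts corresponded to at most 0.186 CPM (counts relative to library size, scaled by TMM within a model), a floor that covers counting error only. The members had between 167 and 11060 counts in a library. The keratinocyte label was checked with Krt5, a keratin of basal keratinocytes, whose group means lay between 10468 CPM (Gnas-eKO BCC) and 16665 CPM (Gnas-eKO Con). Mitochondrial genes took 1.98% to 3.51% of counts in the other libraries and 8.53% in Gnas-eKO BCC replicate 3, which stood apart from the others in several results given here with and without it.

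The promoters of these genes are shown because many of them carry the same short motifs. RefSeq promoters (GRCm38.p6, 250 bases before to 50 after the start) were given for 36 of the 43 members, with 38 start sites. The CHR (cell cycle genes homology region) is an element described in promoters of genes transcribed in G2 and M, and its core letters TTTGAA, or TTCAAA on the other strand, were found in 29 of the 38 promoters (76.3%), against 17.9% of all 32851 promoters in the table. The box CCAAT, or ATTGG, the letters bound by the factor NF-Y, was found in 29 of 38 (76.3%), against 37.4% of all. Within 50 bases of the start the CHR letters stood in 26 of 38 member promoters (68.4%) and in 4.94% of all, and both motifs stood there in 16 of 38 (42.1%) and in 0.816% of all. Matches of the 2 motifs overlapped once in the member promoters.

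**Figure D1:**
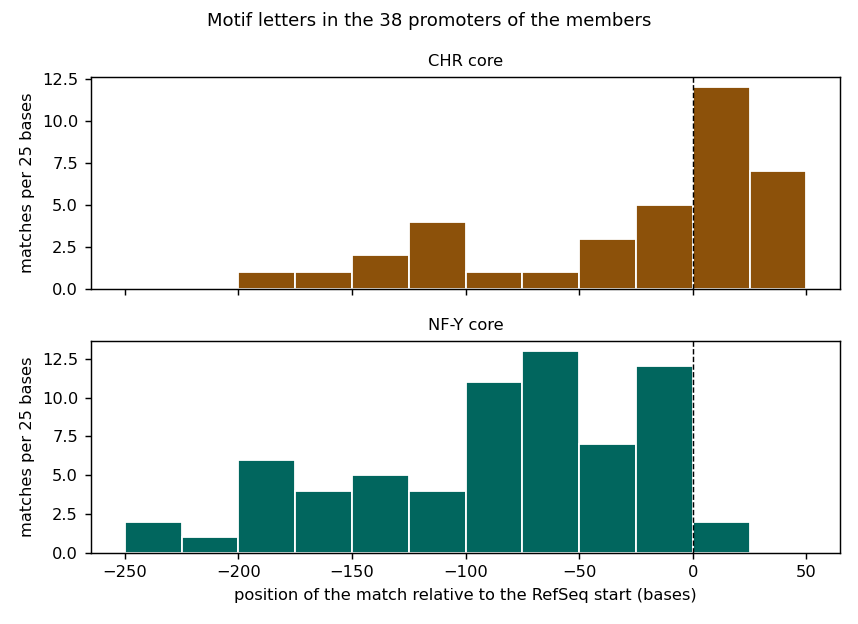
Positions of the CHR core (upper panel) and the CCAAT box, here called NF-Y core (lower panel), in the 38 RefSeq promoters of the members, as the number of matches on either strand per 25 bases (vertical axes) by distance of the match from the start in bases (horizontal axis, start at 0). The CHR letters are most frequent in the 25 bases from the start on (12 of 37 matches) and the CCAAT letters between 75 and 51 bases before it (13 of 67).

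The 150 bases just before the start are printed for 6 members, 5' to 3' in the direction of the gene, with the letters of both motifs in capitals. Cdk1, Cdc20, Top2a, Kif11 and Ube2c hold both motifs there, and Ccnb1 holds 2 CCAAT boxes and neither TTTGAA nor TTCAAA in this window. For the CHR only these letters were searched, so a promoter without them is not shown to lack the element. The stretches lie at chr10:69352913-69353062 (minus strand) for Cdk1, chr4:118437344-118437493 (minus strand) for Cdc20 and chr11:99024190-99024339 (minus strand) for Top2a. Those of Kif11, Ube2c and Ccnb1 lie at chr19:37376232-37376381 (plus strand), chr2:164769779-164769928 (plus strand) and chr13:100786487-100786636 (minus strand), and a RefSeq start can differ from the GENCODE start of the same gene.
Cdk1: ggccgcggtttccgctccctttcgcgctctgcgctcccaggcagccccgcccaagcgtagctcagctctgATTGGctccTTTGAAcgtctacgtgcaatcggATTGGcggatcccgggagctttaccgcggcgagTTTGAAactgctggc
Cdc20: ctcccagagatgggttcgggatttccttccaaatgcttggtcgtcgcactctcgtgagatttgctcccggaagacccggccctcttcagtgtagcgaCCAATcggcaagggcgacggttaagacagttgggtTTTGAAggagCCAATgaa
Top2a: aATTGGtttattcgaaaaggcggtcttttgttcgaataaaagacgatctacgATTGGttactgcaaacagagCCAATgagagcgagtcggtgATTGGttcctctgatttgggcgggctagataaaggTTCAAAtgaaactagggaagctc
Kif11: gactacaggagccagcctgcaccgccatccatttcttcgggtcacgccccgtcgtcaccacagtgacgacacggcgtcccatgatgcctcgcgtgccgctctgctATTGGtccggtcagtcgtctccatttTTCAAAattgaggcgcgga
Ube2c: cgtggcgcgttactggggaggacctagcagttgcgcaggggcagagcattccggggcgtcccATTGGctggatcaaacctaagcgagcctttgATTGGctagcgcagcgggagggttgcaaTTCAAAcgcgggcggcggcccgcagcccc
Ccnb1: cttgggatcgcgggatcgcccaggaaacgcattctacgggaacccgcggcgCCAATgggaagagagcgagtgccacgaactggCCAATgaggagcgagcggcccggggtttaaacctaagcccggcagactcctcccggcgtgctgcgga

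In Cdk1 the CHR letters begin 71 and 15 bases before the start, in Cdc20 18 bases, in Top2a 23 bases, in Kif11 19 bases and in Ube2c 29 bases before it. Of the 36 members with a promoter, 27 hold the CHR letters in at least 1 of their promoters, and the 9 without them are Birc5, Bub1, Ccnb1, Cenpe, Knstrn, Mad2l1, Nuf2, Nusap1 and Pttg1. The median BCC effect in PKI, introduced next, was a log2 fold change of 0.83 over the 27 and 0.79 over the 9. In Gnas-eKO these medians were -0.40 and -0.33, and in SmoM2 -0.16 and -0.24. A match of letters is a description and does not show that a factor binds there.

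By edgeR's test within each model, all 43 members rose in PKI, where 18.7% of all genes were called higher. None was called changed in Gnas-eKO (1.46% of all genes higher and 0.165% lower). There 42 of 43 log2 fold changes were below 0, against 7806 of the 16409 genes tested. In SmoM2 2 fell and none rose, below the 13.5% and 16.2% of all genes. The counts outside PKI depended on the tool. DESeq2 called 4 members lower in Gnas-eKO (2.57% of all genes) and 5 in SmoM2, below the 15.4% of all genes. A joint fit of 21 libraries called 12 lower in Gnas-eKO (6.06% of all genes). The mean log2 CPM over the 43 members, used as one value per library, was in PKI 4.89, 4.92 and 5.06 in Con and 5.79, 5.77, 5.68 and 5.75 in BCC, so every BCC library lay above every Con library and the difference of the means was 0.79. In Gnas-eKO it was 4.83, 5.41 and 5.02 in Con and 4.78, 4.74, 4.55 and 4.82 in BCC, with every BCC library below every Con library by a narrow margin and a difference of -0.36. In SmoM2 it was 5.38, 4.99 and 5.05 in Con and 4.88, 4.75, 5.10 and 5.16 in BCC, with overlapping groups and a difference of -0.17. In bulk RNA, fewer or more dividing cells and less or more of these transcripts per dividing cell cannot be told apart. No p is given for this mean, since the members were chosen with results of these data known.

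**Figure D2:**
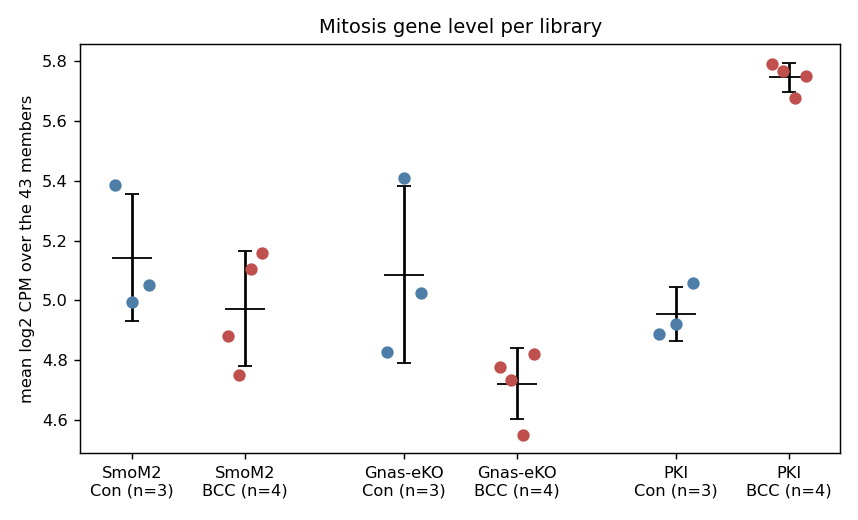
Mean log2 CPM over the 43 members (vertical axis) in each library of the 6 groups (horizontal axis). Points are libraries, blue for Con and red for BCC, horizontal bars are group means and whiskers are 1 SD. Values are scaled by TMM within each model, and model, batch and day cannot be told apart. The 4 PKI BCC libraries sit between 5.68 and 5.79, above all other libraries, while Gnas-eKO BCC replicate 3 is the lowest at 4.55. On a common scale over the 21 libraries, PKI BCC ran from 5.69 to 5.80 and the highest other library, in Gnas-eKO Con, was at 5.41.

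The Con groups themselves spread. In SmoM2, Con replicate 1 was above the mean of the Con libraries in all 43 members, and in Gnas-eKO, Con replicate 2 was above it in all 43, with median deviations of 0.25 and 0.32 on the log2 scale. In PKI no Con library stood above that mean in every member, and each BCC library was above it in 43 of 43. On a common scale over the 21 libraries, SmoM2 had means of 5.13 in Con and 4.95 in BCC, Gnas-eKO of 5.09 and 4.71, and PKI of 4.98 and 5.76.

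**Figure D3:**
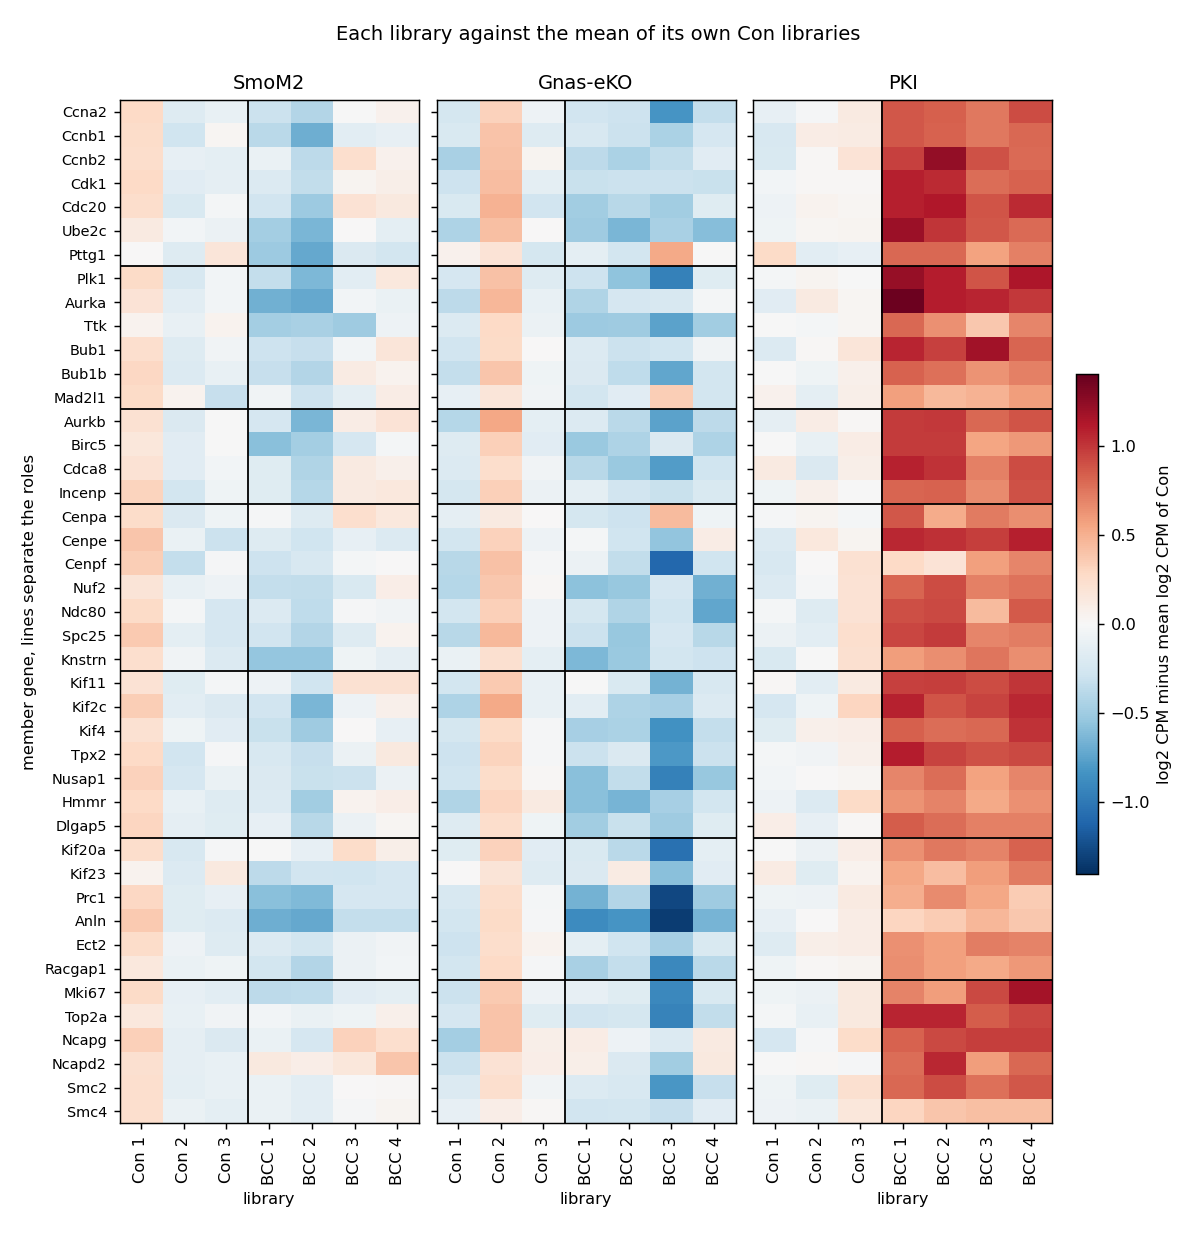
Log2 CPM of each of the 43 members (rows, grouped by role with lines between roles) in each library (columns) minus the mean log2 CPM of the Con libraries of the same model (colour scale, red higher and blue lower). The 4 PKI BCC columns are red in every row, while SmoM2 Con 1 and Gnas-eKO Con 2 are the Con columns that are above the Con mean in all 43 rows.

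In PKI, edgeR's quasi-likelihood test called all 43 members higher in BCC (adjusted p under 0.05), where 18.7% of the 16397 genes tested were called higher. None was called lower, against 15.8% of genes. In 42 of 43 members every BCC library lay above every Con library, which 23.1% of genes showed, Cenpf being the exception, and none had every BCC library below, which 20.1% of genes showed. The median log2 fold change of the members was 0.80, against -0.00 over all genes tested, and the members ran from 0.37 (Anln) to 1.13 (Aurka). Calls for Cenpf and Anln were lost when all 21 libraries were fitted together, and the call for Cenpf also when Con replicate 1, Con replicate 2, BCC replicate 3 or BCC replicate 4 was left out.

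In Gnas-eKO no member passed edgeR's test, with 0 called higher (1.46% of the 16409 genes tested) and 0 lower (0.165%). At an unadjusted p under 0.05, 15 of 43 members were lower and 0 higher, against 7.34% and 12.2% of all genes. DESeq2's Wald test called 4 lower (Ttk, Nusap1, Prc1 and Anln), against 2.57% of genes, and the joint fit of 21 libraries called 12 lower, against 6.06% of genes. Without BCC replicate 2 Nusap1 and Anln were called lower. The number of members at an unadjusted p under 0.05 was 3 without Con replicate 2, 9 without BCC replicate 1 and 28 without Con replicate 1. In 15 members every BCC library lay below every Con library, against 9.16% of genes, and in none did every BCC library lie above, against 10.3%. The median log2 fold change was -0.40, against 0.02 over all genes, from -0.92 (Anln) to 0.06 (Pttg1). Without Con replicate 2, the highest of the Con libraries, the median was -0.21, and without BCC replicate 3 it was -0.31 with Anln called lower.

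In SmoM2, Kif23 and Anln fell and no member rose, where 13.5% of the 16370 genes tested were called lower and 16.2% higher, so the members' share of calls was below that of all genes in both directions. At an unadjusted p under 0.05, 7 of 43 members were lower and 0 higher, shares that are below the 19.1% and 21.2% of all genes. DESeq2 called 5 lower (the same 2 with Pttg1, Ttk and Prc1), also below the 15.4% of all genes. The number at an unadjusted p under 0.05 was 3 without BCC replicate 1, 4 without Con replicate 1 or BCC replicate 2, and 10 without Con replicate 2. In 4 members (Anln, Prc1, Pttg1 and Kif23) every BCC library lay below every Con library, against 18% of genes, and in 0 every BCC library lay above, against 20.5%. The median log2 fold change was -0.16, against 0.00 over all genes, with 38 members below 0 and 5 above. Both calls were lost without Con replicate 1, BCC replicate 1 or BCC replicate 2, and without Con replicate 1 the median was -0.01 and Ncapd2 was called higher. The median was -0.098 without BCC replicate 2 and -0.24 without Con replicate 2. The call for Kif23 was also lost without Con replicate 3, BCC replicate 3 or BCC replicate 4 and in a fit of all 21 libraries, and that for Anln without the filter on low counts.

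**Figure D4:**
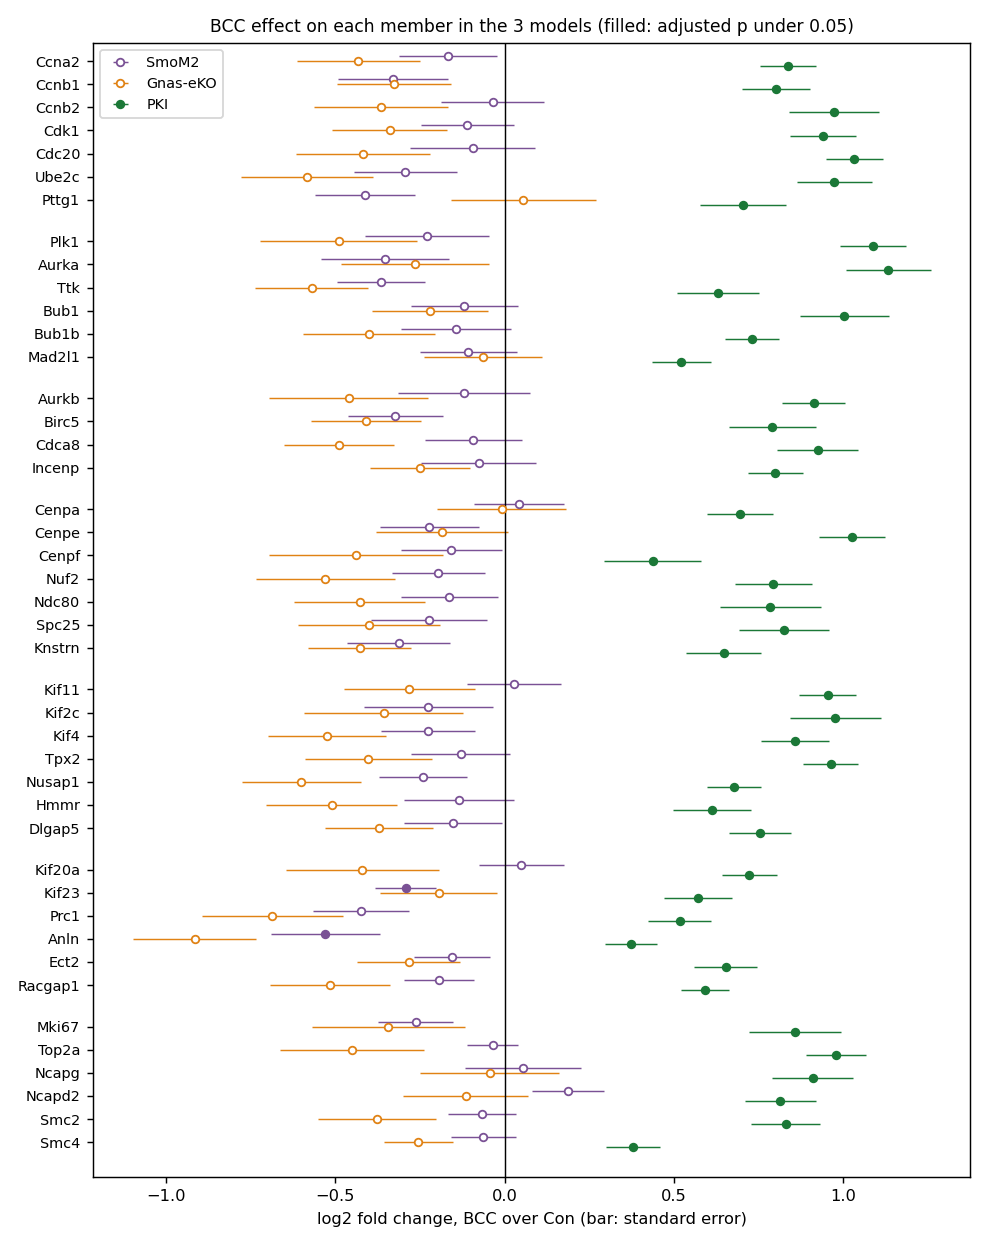
Log2 fold change of BCC over Con (horizontal axis) for each of the 43 members (vertical axis, grouped by role) in SmoM2 (purple), Gnas-eKO (orange) and PKI (green). Bars are standard errors, and filled points passed an adjusted p under 0.05. All 43 PKI points are filled and lie between 0.37 and 1.13, while the other models' points lie between -0.92 and 0.19 with 2 filled.

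The cyclins, Cdk1 and the genes that control the APC/C (Ccna2, Ccnb1, Ccnb2, Cdk1, Cdc20, Ube2c and Pttg1) rose in PKI in 7 of 7, against 18.7% of all genes. Their median log2 fold change there was 0.94, the highest of the 7 roles. None of the 7 passed edgeR's test in Gnas-eKO (median -0.37) or in SmoM2 (median -0.17), while Ube2c was called lower in Gnas-eKO in the joint fit and Pttg1 in SmoM2 by DESeq2. Cdk1 (chr10:69335146-69352938, minus strand) encodes the kinase that starts mitosis. Cdk1 stood in PKI at 30.9, 32.0 and 32.1 CPM in Con and 67.3, 65.4, 54.5 and 56.1 CPM in BCC (log2 fold change 0.94, SE 0.10, edgeR adjusted p = 0.00026). In Gnas-eKO, Cdk1 was measured at 32.4, 53.4 and 36.1 CPM in Con and 32.0, 32.3, 32.3 and 31.9 CPM in BCC (log2 fold change -0.34, SE 0.17, edgeR adjusted p = 0.315). In SmoM2, Cdk1 was measured at 46.4, 34.3 and 35.1 CPM in Con and 33.4, 30.04, 39.2 and 40.6 CPM in BCC (log2 fold change -0.11, SE 0.14, edgeR adjusted p = 0.601). The PKI groups were well apart, the Gnas-eKO BCC libraries were close to each other and just below the lowest Con library, and the SmoM2 groups overlapped.

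Ccnb1 (chr13:100778650-100786570, minus strand) encodes cyclin B1, the Cdk1 partner whose destruction lets cells leave mitosis. Ccnb1 stood in PKI at 26.2, 33.0 and 33.2 CPM in Con and 55.8, 54.2, 51.1 and 53.6 CPM in BCC (log2 fold change 0.80, SE 0.10, edgeR adjusted p = 0.000583). In Gnas-eKO, Ccnb1 was measured at 25.7, 39.2 and 26.3 CPM in Con and 25.5, 24.2, 21.9 and 25.4 CPM in BCC (log2 fold change -0.33, SE 0.17, edgeR adjusted p = 0.328). In SmoM2, Ccnb1 was measured at 41.1, 28.3 and 35.1 CPM in Con and 26.5, 21.5, 31.1 and 31.7 CPM in BCC (log2 fold change -0.33, SE 0.16, edgeR adjusted p = 0.162). All PKI BCC libraries were above all Con libraries, all Gnas-eKO BCC libraries were below them, and the SmoM2 groups overlapped. Cdc20 (chr4:118432901-118437352, minus strand) encodes the activator of the APC/C at the start of anaphase. Cdc20 stood in PKI at 33.9, 36.8 and 36.4 CPM in Con and 75.6, 77.5, 65.8 and 73.4 CPM in BCC (log2 fold change 1.03, SE 0.08, edgeR adjusted p = 9.87e-05). In Gnas-eKO, Cdc20 was measured at 32.4, 52.7 and 31.1 CPM in Con and 26.7, 28.6, 26.9 and 33.5 CPM in BCC (log2 fold change -0.42, SE 0.20, edgeR adjusted p = 0.288). In SmoM2, Cdc20 was measured at 49.6, 36.1 and 41.0 CPM in Con and 34.8, 29.5, 48.2 and 45.9 CPM in BCC (log2 fold change -0.09, SE 0.18, edgeR adjusted p = 0.75). The Cdc20 groups did not overlap in PKI and overlapped in the other models.

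Pttg1 encodes securin, which holds back the protease separase until anaphase, and it went its own way in Gnas-eKO, where its log2 fold change was the only one above 0. Pttg1 stood in PKI at 17.5, 13.1 and 13.5 CPM in Con and 25.3, 25.3, 21.6 and 23.7 CPM in BCC (log2 fold change 0.70, SE 0.13, edgeR adjusted p = 0.00301). In Gnas-eKO, Pttg1 was measured at 18.4, 20.2 and 14.8 CPM in Con and 16.1, 14.8, 25.6 and 17.5 CPM in BCC (log2 fold change 0.06, SE 0.21, edgeR adjusted p = 0.915). In SmoM2, Pttg1 was measured at 18.4, 16.2 and 20.7 CPM in Con and 12.9, 11.2, 16.0 and 15.4 CPM in BCC (log2 fold change -0.41, SE 0.15, edgeR adjusted p = 0.06). In Gnas-eKO its highest library was BCC replicate 3, the library with 8.53% mitochondrial counts, and the log2 fold change was -0.14 without that library and -0.06 without Con replicate 3. Among the remaining cyclin and APC/C genes, Ube2c, the ubiquitin-conjugating enzyme of the APC/C, had log2 fold changes of 0.97 in PKI, -0.58 in Gnas-eKO and -0.29 in SmoM2.

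Mitotic kinases and spindle checkpoint genes (Plk1, Aurka, Ttk, Bub1, Bub1b and Mad2l1) rose in PKI in 6 of 6 (median 0.87), against 18.7% of all genes. None passed edgeR's test in Gnas-eKO (median -0.33) or SmoM2 (median -0.19). Ttk was called lower in both of those models by DESeq2 and in the joint fit. Plk1 (chr7:122159439-122169873, plus strand) encodes a kinase needed for spindle poles, kinetochores and cytokinesis. Plk1 stood in PKI at 21.2, 22.29 and 21.6 CPM in Con and 50.5, 46.6, 40.1 and 47.6 CPM in BCC (log2 fold change 1.09, SE 0.10, edgeR adjusted p = 0.000137). In Gnas-eKO, Plk1 was measured at 18.0, 28.3 and 18.8 CPM in Con and 17.4, 14.4, 11.0 and 18.9 CPM in BCC (log2 fold change -0.49, SE 0.23, edgeR adjusted p = 0.289). In SmoM2, Plk1 was measured at 29.3, 20.9 and 23.7 CPM in Con and 19.4, 15.8, 22.04 and 27.0 CPM in BCC (log2 fold change -0.23, SE 0.18, edgeR adjusted p = 0.391). The lowest PKI BCC library was far above the highest Con library, and the groups overlapped in the other models. Bub1 (chr2:127801122-127831865, minus strand) encodes a checkpoint kinase that sits at kinetochores. Bub1 stood in PKI at 8.93, 10.4 and 11.5 CPM in Con and 21.4, 19.8, 23.1 and 18.0 CPM in BCC (log2 fold change 1.00, SE 0.13, edgeR adjusted p = 0.000738). In Gnas-eKO, Bub1 was measured at 10.9, 15.7 and 13.1 CPM in Con and 11.4, 10.6, 10.7 and 12.6 CPM in BCC (log2 fold change -0.22, SE 0.17, edgeR adjusted p = 0.528). In SmoM2, Bub1 was measured at 15.1, 11.3 and 12.4 CPM in Con and 10.5, 10.2, 12.5 and 14.4 CPM in BCC (log2 fold change -0.12, SE 0.16, edgeR adjusted p = 0.624). Here too the groups were separate in PKI and overlapped in Gnas-eKO and SmoM2.

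Aurka (chr2:172356190-172370535, minus strand), the kinase that matures spindle poles, had the highest log2 fold change of all members in PKI. Aurka stood in PKI at 10.4, 12.7 and 11.9 CPM in Con and 29.96, 24.8, 24.3 and 23.0 CPM in BCC (log2 fold change 1.13, SE 0.13, edgeR adjusted p = 0.000365). In Gnas-eKO, Aurka was measured at 10.1, 18.1 and 12.2 CPM in Con and 9.76, 11.1, 11.2 and 12.8 CPM in BCC (log2 fold change -0.26, SE 0.22, edgeR adjusted p = 0.556). In SmoM2, Aurka was measured at 17.3, 13.7 and 14.7 CPM in Con and 9.55, 9.26, 14.8 and 14.2 CPM in BCC (log2 fold change -0.35, SE 0.19, edgeR adjusted p = 0.196). Mad2l1, the checkpoint protein that binds Cdc20, was the lowest of this role in PKI. Mad2l1 stood in PKI at 28.5, 24.8 and 29.0 CPM in Con and 40.7, 37.6, 38.3 and 41.0 CPM in BCC (log2 fold change 0.52, SE 0.09, edgeR adjusted p = 0.00214). In Gnas-eKO, Mad2l1 was measured at 30.2, 36.7 and 31.6 CPM in Con and 27.3, 29.3, 41.6 and 27.4 CPM in BCC (log2 fold change -0.06, SE 0.17, edgeR adjusted p = 0.877). In SmoM2, Mad2l1 was measured at 37.6, 32.3 and 24.9 CPM in Con and 30.1, 25.5, 28.4 and 33.4 CPM in BCC (log2 fold change -0.11, SE 0.14, edgeR adjusted p = 0.623). As with Pttg1, the highest Mad2l1 value in Gnas-eKO was in BCC replicate 3. Ttk, the kinase that recruits checkpoint proteins to kinetochores, was higher in every PKI BCC library than in any PKI Con library, and lower in every Gnas-eKO BCC library than in any Con library of that model.

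The chromosomal passenger complex is represented by all of its core subunits, the kinase Aurkb with Incenp, Birc5 (survivin) and Cdca8 (borealin). All 4 rose in PKI, between 0.79 and 0.92 on the log2 scale, against 18.7% of all genes called higher. None passed edgeR's test in Gnas-eKO (median -0.44), where the joint fit called Cdca8 lower, or in SmoM2 (median -0.11). Aurkb lies at chr11:69045647-69051664, plus strand. Aurkb stood in PKI at 17.9, 20.9 and 19.7 CPM in Con and 38.3, 38.6, 34.04 and 35.7 CPM in BCC (log2 fold change 0.91, SE 0.09, edgeR adjusted p = 0.000234). In Gnas-eKO, Aurkb was measured at 19.1, 36.7 and 22.8 CPM in Con and 22.1, 19.4, 15.0 and 19.5 CPM in BCC (log2 fold change -0.46, SE 0.24, edgeR adjusted p = 0.323). In SmoM2, Aurkb was measured at 29.5, 22.27 and 25.4 CPM in Con and 21.7, 16.4, 27.4 and 29.3 CPM in BCC (log2 fold change -0.12, SE 0.19, edgeR adjusted p = 0.695). Its PKI groups were separate, and its groups in the other models overlapped. Birc5 lies at chr11:117849251-117855743, plus strand. Birc5 stood in PKI at 23.3, 21.7 and 24.99 CPM in Con and 45.9, 45.8, 34.3 and 35.6 CPM in BCC (log2 fold change 0.79, SE 0.13, edgeR adjusted p = 0.00195). In Gnas-eKO, Birc5 was measured at 24.5, 35.1 and 24.9 CPM in Con and 19.4, 20.5, 24.2 and 20.6 CPM in BCC (log2 fold change -0.41, SE 0.16, edgeR adjusted p = 0.214). In SmoM2, Birc5 was measured at 31.2, 25.04 and 27.9 CPM in Con and 18.6, 20.0, 23.7 and 27.3 CPM in BCC (log2 fold change -0.32, SE 0.14, edgeR adjusted p = 0.114). For Birc5 all BCC libraries were above Con in PKI and below Con in Gnas-eKO, while in SmoM2 1 BCC library (replicate 4) lay among the Con libraries.

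Centromere and kinetochore genes (Cenpa, Cenpe, Cenpf, Nuf2, Ndc80, Spc25 and Knstrn) rose in PKI in 7 of 7 (median 0.78), against 18.7% of all genes. None passed edgeR's test in Gnas-eKO (median -0.43), where the joint fit called Nuf2 and Knstrn lower, or in SmoM2 (median -0.20). Cenpa (chr5:30666777-30674830, plus strand) encodes the histone H3 variant that marks centromeres. Cenpa stood in PKI at 27.2, 28.2 and 26.9 CPM in Con and 50.1, 39.2, 45.3 and 42.998 CPM in BCC (log2 fold change 0.70, SE 0.10, edgeR adjusted p = 0.000954). In Gnas-eKO, Cenpa was measured at 24.2, 28.9 and 26.7 CPM in Con and 22.4, 21.8, 36.0 and 25.5 CPM in BCC (log2 fold change -0.01, SE 0.19, edgeR adjusted p = 0.987). In SmoM2, Cenpa was measured at 31.8, 23.3 and 25.7 CPM in Con and 26.4, 23.6, 31.5 and 29.6 CPM in BCC (log2 fold change 0.04, SE 0.13, edgeR adjusted p = 0.85). Outside PKI its groups overlapped, and in Gnas-eKO the highest library was again BCC replicate 3. Cenpf, a large protein of the outer kinetochore, was the member with overlapping PKI groups. Cenpf stood in PKI at 49.6, 57.9 and 66.9 CPM in Con and 70.1, 65.9, 86.1 and 92.6 CPM in BCC (log2 fold change 0.44, SE 0.14, edgeR adjusted p = 0.0422). In Gnas-eKO, Cenpf was measured at 42.0, 73.2 and 54.4 CPM in Con and 51.9, 43.4, 25.8 and 45.5 CPM in BCC (log2 fold change -0.44, SE 0.26, edgeR adjusted p = 0.389). In SmoM2, Cenpf was measured at 80.2, 50.1 and 62.1 CPM in Con and 51.6, 53.8, 61.6 and 63.3 CPM in BCC (log2 fold change -0.16, SE 0.15, edgeR adjusted p = 0.481). In PKI its BCC replicate 2 lay just below the highest Con library, and the other 3 BCC libraries lay above it. In Gnas-eKO its lowest library was BCC replicate 3.

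Cenpe, a kinesin that carries chromosomes to the spindle equator, had the highest PKI change of this role, at 23.3, 29.6 and 27.4 CPM in Con and 55.4, 54.2, 51.9 and 56.4 CPM in BCC (log2 fold change 1.03, SE 0.10, edgeR adjusted p = 0.000178). Its lowest BCC library lay well above its highest Con library. The subunits of the Ndc80 complex, which binds spindle microtubules, rose in PKI, with log2 fold changes of 0.78 for Ndc80, 0.79 for Nuf2 and 0.83 for Spc25, each with separate groups.

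Spindle motors and microtubule-binding proteins (Kif11, Kif2c, Kif4, Tpx2, Nusap1, Hmmr and Dlgap5) rose in PKI in 7 of 7 (median 0.86), against 18.7% of all genes. None passed edgeR's test in Gnas-eKO (median -0.40), where the joint fit called Kif4, Nusap1 and Hmmr lower, or in SmoM2 (median -0.15). Kif11 (chr19:37376403-37421859, plus strand) encodes the kinesin that pushes spindle poles apart. Kif11 stood in PKI at 42.1, 37.6 and 45.5 CPM in Con and 80.7, 81.4, 78.1 and 83.2 CPM in BCC (log2 fold change 0.95, SE 0.08, edgeR adjusted p = 0.000132). In Gnas-eKO, Kif11 was measured at 38.1, 58.7 and 42.3 CPM in Con and 45.2, 39.3, 28.9 and 39.1 CPM in BCC (log2 fold change -0.28, SE 0.19, edgeR adjusted p = 0.472). In SmoM2, Kif11 was measured at 52.7, 40.5 and 44.7 CPM in Con and 43.6, 37.7, 53.1 and 53.1 CPM in BCC (log2 fold change 0.03, SE 0.14, edgeR adjusted p = 0.907). Kif11 was separate between the PKI groups and overlapped in the other models. Nusap1, which bundles microtubules near chromosomes, was among the 3 lowest members in Gnas-eKO. Nusap1 stood in PKI at 36.0, 37.1 and 37.7 CPM in Con and 59.4, 63.2, 54.6 and 59.2 CPM in BCC (log2 fold change 0.68, SE 0.08, edgeR adjusted p = 0.000427). In Gnas-eKO, Nusap1 was measured at 34.2, 49.5 and 41.9 CPM in Con and 27.6, 32.5, 21.5 and 28.7 CPM in BCC (log2 fold change -0.60, SE 0.17, edgeR adjusted p = 0.116). In SmoM2, Nusap1 was measured at 52.4, 35.5 and 39.3 CPM in Con and 36.4, 33.8, 33.97 and 39.4 CPM in BCC (log2 fold change -0.24, SE 0.13, edgeR adjusted p = 0.195). Every Gnas-eKO BCC library lay below every Con library for Nusap1, which did not pass the adjusted test but was called lower without BCC replicate 2, with DESeq2 and in the joint fit of 21 libraries.

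Genes of the central spindle and of cytokinesis (Kif20a, Kif23, Prc1, Anln, Ect2 and Racgap1) rose in PKI in 6 of 6, against 18.7% of all genes. Their median there, 0.58, was the lowest of the 7 roles. The same role had the lowest median in Gnas-eKO (-0.47, none called by edgeR) and in SmoM2 (-0.24), a ranking that was not tested. In SmoM2 2 of 6 were called lower, against 13.5% of all genes. Both calls were lost when Con replicate 1, BCC replicate 1 or BCC replicate 2 was left out. In Gnas-eKO, DESeq2 called Prc1 and Anln lower and the joint fit also Racgap1, and in SmoM2 DESeq2 also called Prc1 lower. Anln (chr9:22332012-22389188, minus strand) encodes anillin, a scaffold that links actin, myosin and septins at the cleavage furrow. Anln stood in PKI at 75.0, 81.2 and 87.1 CPM in Con and 100.1, 104, 112 and 105 CPM in BCC (log2 fold change 0.37, SE 0.08, edgeR adjusted p = 0.00561). In Gnas-eKO, Anln was measured at 73.6, 106 and 87.0 CPM in Con and 47.8, 49.5, 34.9 and 56.0 CPM in BCC (log2 fold change -0.92, SE 0.18, edgeR adjusted p = 0.0503). In SmoM2, Anln was measured at 110.3, 76.4 and 74.9 CPM in Con and 53.5, 52.3, 68.2 and 67.8 CPM in BCC (log2 fold change -0.53, SE 0.16, edgeR adjusted p = 0.0394). Anln thus fell in SmoM2 and rose in PKI. In each model its groups were separate, and in Gnas-eKO, where it missed the threshold narrowly, its level was lowest in BCC replicate 3.

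Prc1 (chr7:80294450-80316259, plus strand) encodes the protein that cross-links microtubules between the separating chromosomes. Prc1 stood in PKI at 60.2, 60.1 and 68.7 CPM in Con and 89.3, 99.5, 91.4 and 80.5 CPM in BCC (log2 fold change 0.52, SE 0.09, edgeR adjusted p = 0.00295). In Gnas-eKO, Prc1 was measured at 65.3, 90.2 and 74.4 CPM in Con and 48.0, 57.1, 31.5 and 54.0 CPM in BCC (log2 fold change -0.69, SE 0.21, edgeR adjusted p = 0.126). In SmoM2, Prc1 was measured at 95.0, 69.2 and 71.7 CPM in Con and 51.8, 50.8, 66.0 and 66.1 CPM in BCC (log2 fold change -0.42, SE 0.14, edgeR adjusted p = 0.0512). As for Anln, all BCC libraries were above Con in PKI and below Con in the other models. Kif23 (chr9:61915905-61946774, minus strand) encodes the kinesin of centralspindlin, whose other subunit is Racgap1. Kif23 stood in PKI at 45.9, 37.6 and 43.7 CPM in Con and 61.4, 57.0, 63.5 and 70.1 CPM in BCC (log2 fold change 0.57, SE 0.10, edgeR adjusted p = 0.0028). In Gnas-eKO, Kif23 was measured at 37.0, 41.8 and 32.5 CPM in Con and 32.0, 40.0, 24.6 and 32.9 CPM in BCC (log2 fold change -0.19, SE 0.17, edgeR adjusted p = 0.587). In SmoM2, Kif23 was measured at 47.9, 40.4 and 50.9 CPM in Con and 35.9, 38.2, 38.2 and 39.4 CPM in BCC (log2 fold change -0.29, SE 0.09, edgeR adjusted p = 0.0357). Kif23 was called lower in SmoM2 and higher in PKI, and its Gnas-eKO groups overlapped.

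Kif20a, the kinesin that brings the passenger complex to the central spindle, was one of the 5 members above 0 in SmoM2, at 51.3, 36.8 and 42.4 CPM in Con and 43.01, 39.7, 51.7 and 45.7 CPM in BCC (log2 fold change 0.05, SE 0.13, edgeR adjusted p = 0.81). Its SmoM2 groups overlapped. Ect2, the exchange factor that activates RhoA at the furrow, and Racgap1, which recruits it, rose in PKI with log2 fold changes of 0.65 and 0.59.

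Genes of mitotic chromosome structure (Mki67, Top2a, Ncapg, Ncapd2, Smc2 and Smc4) rose in PKI in 6 of 6 (median 0.84), against 18.7% of all genes. None passed edgeR's test in Gnas-eKO (median -0.30), where the joint fit called Top2a lower, or in SmoM2 (median -0.05). Mki67 (chr7:135689784-135716361, minus strand) encodes Ki-67, the coat protein of mitotic chromosomes and a widely used marker of dividing cells. Mki67 stood in PKI at 245, 242 and 281 CPM in Con and 415, 385, 486 and 572 CPM in BCC (log2 fold change 0.86, SE 0.14, edgeR adjusted p = 0.00182). In Gnas-eKO, Mki67 was measured at 201, 321 and 237 CPM in Con and 229, 221, 133 and 215 CPM in BCC (log2 fold change -0.34, SE 0.23, edgeR adjusted p = 0.448). In SmoM2, Mki67 was measured at 317, 243 and 238 CPM in Con and 205, 205, 236 and 240.3 CPM in BCC (log2 fold change -0.26, SE 0.11, edgeR adjusted p = 0.105). The PKI BCC libraries of Mki67 spread more widely than its Con libraries and did not overlap them, while the groups overlapped in Gnas-eKO and SmoM2. Top2a (chr11:98992943-99024189, minus strand) encodes the topoisomerase that untangles sister chromatids. Top2a stood in PKI at 122, 117 and 137 CPM in Con and 261, 261, 225 and 239.8 CPM in BCC (log2 fold change 0.98, SE 0.09, edgeR adjusted p = 0.000141). In Gnas-eKO, Top2a was measured at 123, 191 and 129 CPM in Con and 120.0, 122, 75.7 and 114 CPM in BCC (log2 fold change -0.45, SE 0.21, edgeR adjusted p = 0.285). In SmoM2, Top2a was measured at 159, 134 and 139 CPM in Con and 139, 134, 137 and 151 CPM in BCC (log2 fold change -0.03, SE 0.08, edgeR adjusted p = 0.775). Top2a groups were separate in PKI and in Gnas-eKO, in opposite directions, and overlapped in SmoM2.

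Subunits of condensin, the ring that compacts chromosomes, had PKI log2 fold changes from 0.38 to 0.91. Ncapd2 stood in PKI at 67.1, 68.0 and 66.4 CPM in Con and 115, 139, 101 and 117 CPM in BCC (log2 fold change 0.81, SE 0.11, edgeR adjusted p = 0.000684). In Gnas-eKO, Ncapd2 was measured at 58.8, 83.6 and 77.5 CPM in Con and 76.7, 62.8, 51.6 and 79.5 CPM in BCC (log2 fold change -0.12, SE 0.18, edgeR adjusted p = 0.782). In SmoM2, Ncapd2 was measured at 93.0, 72.5 and 74.1 CPM in Con and 86.9, 84.4, 88.8 and 104 CPM in BCC (log2 fold change 0.19, SE 0.11, edgeR adjusted p = 0.224). Ncapd2 had the highest log2 fold change of all members in SmoM2, without passing. Ncapg stood in PKI at 14.7, 17.1 and 20.7 CPM in Con and 30.7, 33.0, 33.8 and 33.9 CPM in BCC (log2 fold change 0.91, SE 0.12, edgeR adjusted p = 0.000738). In Gnas-eKO, Ncapg was measured at 14.0, 25.5 and 20.5 CPM in Con and 20.8, 18.4, 17.0 and 21.2 CPM in BCC (log2 fold change -0.04, SE 0.21, edgeR adjusted p = 0.93). In SmoM2, Ncapg was measured at 27.4, 19.9 and 19.0 CPM in Con and 20.5, 18.5, 27.2 and 25.7 CPM in BCC (log2 fold change 0.05, SE 0.17, edgeR adjusted p = 0.849). Ncapg likewise rose in PKI with separate groups and overlapped elsewhere. Smc4 stood in PKI at 96.8, 95.4 and 113 CPM in Con and 125, 133, 135 and 136 CPM in BCC (log2 fold change 0.38, SE 0.08, edgeR adjusted p = 0.00595). In Gnas-eKO, Smc4 was measured at 105, 122 and 115 CPM in Con and 94.4, 95.2, 90.8 and 102 CPM in BCC (log2 fold change -0.25, SE 0.10, edgeR adjusted p = 0.219). In SmoM2, Smc4 was measured at 134, 106 and 103 CPM in Con and 106, 103, 112 and 117 CPM in BCC (log2 fold change -0.06, SE 0.10, edgeR adjusted p = 0.672). For Smc4, one of the condensin ATPases, the PKI change was among the 3 lowest of the members although the groups were separate, whereas its partner Smc2 had a log2 fold change of 0.83.

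Whether the BCC effect differed between models was tested as an interaction over the 14 libraries of both models, each gene being compared over all genes tested. The effect on 42 of 43 members was higher in PKI than in SmoM2 (12.6% of 17261 genes were higher), and none was lower (12.3%), Cenpf being the member that missed at 0.60 (SE 0.22, edgeR adjusted p = 0.0674). The median difference was 0.99 on the log2 scale. It was largest for Aurka, at 1.49 (SE 0.24, edgeR adjusted p = 0.000602), and Plk1, at 1.32 (SE 0.22, edgeR adjusted p = 0.000699). It was smallest for Smc4, at 0.45 (SE 0.13, edgeR adjusted p = 0.0201), a call that was lost without PKI Con replicate 1 or PKI Con replicate 2, and the call for Kif20a was lost in the joint fit of 21 libraries. Cenpf passed without SmoM2 Con replicate 2 or PKI BCC replicate 2, and with DESeq2.

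Against Gnas-eKO, the effect in PKI was higher for 39 of 43 members (4.49% of 17254 genes) and lower for none (4.58%). The median difference was 1.21, with Plk1 highest at 1.58 (SE 0.26, edgeR adjusted p = 0.00383) and Ube2c next at 1.56 (SE 0.23, edgeR adjusted p = 0.00249). The 4 members that missed were Pttg1, Mad2l1, Cenpa and Cenpf, of which the first 3 were high in Gnas-eKO BCC replicate 3, and without that library 42 members passed. The count was 35 without Gnas-eKO Con replicate 2 or PKI Con replicate 2, Kif23, Mki67, Ncapg and Ncapd2 being lost in both. Mad2l1 had the smallest difference, 0.59 (SE 0.20, edgeR adjusted p = 0.0777), and Smc4, the next, passed at 0.64 (SE 0.12, edgeR adjusted p = 0.00809). These tests against SmoM2 and Gnas-eKO use the same 7 PKI libraries, so their results are not independent of each other.

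Between Gnas-eKO and SmoM2, no member's effect was called different (0 higher, 0.0758% of 17151 genes, and 0 lower, 0.0991%), with 0 at an unadjusted p under 0.05 (4.75% of genes higher and 3.99% lower) and 0 by DESeq2 (0.606% higher and 0.63% lower). The median difference was -0.26, and the members ran from -0.46 (SE 0.28, edgeR adjusted p = 0.661) for Kif20a to 0.47 (SE 0.27, edgeR adjusted p = 0.649) for Pttg1. Top2a was next lowest at -0.41 (SE 0.24, edgeR adjusted p = 0.652) and Kif23 next highest at 0.10 (SE 0.20, edgeR adjusted p = 0.908). The median was -0.047, with 17 members above 0, without Gnas-eKO Con replicate 2, and -0.40 without SmoM2 Con replicate 1. It was -0.15 without SmoM2 Con replicate 2 and -0.17 without SmoM2 BCC replicate 4 or Gnas-eKO BCC replicate 3. With standard errors of this size the models are not shown to act alike on these genes.

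Within groups, the members varied together from library to library. Over the 21 libraries, after the group mean was taken from each value, the median Pearson correlation over the 903 pairs of members was 0.67 and 863 pairs were positive, a description in which the members share library, depth and scaling. Pairs of other genes were not measured this way, so the value is not shown to be particular to the members. Each member was also set against the mean of the other 42. Bub1b followed that mean most closely (r = 0.96), and Pttg1 (0.13), Mad2l1 (0.28), Cenpa (0.29) and Kif23 (0.38) least. Within the 7 libraries of a model the median pair correlation was lowest in PKI (0.31), against 0.72 in Gnas-eKO and 0.85 in SmoM2. In SmoM2 the lowest member was Kif23 (0.37), and in PKI and Gnas-eKO it was Pttg1 (-0.21 and -0.16).

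Other cell cycle genes, listed by function, were read from the same tests, in which 18.7% of all genes were called higher in PKI. Of 65 other mitosis genes, 48 rose, among them Kif20b (0.57) and the kinase Mastl (0.59), and 0 fell in PKI (median log2 fold change 0.59). In Gnas-eKO 0 changed (median -0.31, 14 lower at an unadjusted p under 0.05, against 7.34% of all genes), and in SmoM2 2 rose and 5 fell (median -0.11), both shares below the 16.2% and 13.5% of all genes. The 2 that rose in SmoM2 were Mad1l1 (1.00) and Nde1 (0.32), and the lowest were Cenpi (-1.15) and Ckap2 (-0.50). Of 10 G2/M phosphatases and kinases, 7 rose in PKI, among them the Cdk1-activating phosphatases Cdc25c (0.78) and Cdc25b (0.70). In SmoM2 2 of these 10 rose, Wee1 (0.76), which inhibits Cdk1, and Cdc25a (0.62), a share near the 16.2% of all genes and no result about the list, and none changed in Gnas-eKO.

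Genes of S phase and DNA replication rose in PKI in 24 of 31 (median 0.55), with Mcm10 (0.99) and Rrm2 (0.97) highest. In SmoM2 2 of the 31 rose, Pola1 and Mcm7, and 3 fell, Tk1, Rrm2 and Pcna, with a median of 0.16, shares below the 16.2% and 13.5% of all genes and no result about the list. In Gnas-eKO 0 changed (median -0.21, 28 of 31 below 0). Of 16 subunits and regulators of the APC/C, 4 rose in PKI (Anapc15, Anapc4, Cdc26 and Fbxo5, an APC/C inhibitor), with a median of 0.10. In SmoM2 2 of the 16 rose, Anapc4 and Cdc26, and in Gnas-eKO none changed. These shares are near or below those of all genes called higher, 18.7% in PKI and 16.2% in SmoM2, and are not a result about this list.

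Of 18 cell cycle transcription factors, 10 rose and 1 fell in PKI (median 0.37), 2 rose and 1 fell in SmoM2 (median 0.10), and none changed in Gnas-eKO (median -0.05). The SmoM2 counts and the 1 that fell in PKI are below the shares over all genes (16.2% higher and 13.5% lower in SmoM2, 15.8% lower in PKI), so they are values of single genes and not a result about the list. Mybl2, the B-Myb subunit of the complex that activates G2/M genes, stood in PKI at a Con mean of 9.58 ± 0.482 CPM (SD, n = 3) and a BCC mean of 18.6 ± 1.83 CPM (SD, n = 4, log2 fold change 0.96, SE 0.12, edgeR adjusted p = 0.00053). Foxm1, which joins that complex, stood in PKI at a Con mean of 40.5 ± 2.68 CPM (SD, n = 3) and a BCC mean of 67.3 ± 5.37 CPM (SD, n = 4, log2 fold change 0.73, SE 0.09, edgeR adjusted p = 0.00057). Both rose. Foxm1 also rose in SmoM2, at a Con mean of 41.9 ± 6.07 CPM (SD, n = 3) and a BCC mean of 56.8 ± 4.42 CPM (SD, n = 4, log2 fold change 0.44, SE 0.11, edgeR adjusted p = 0.012), a model in which none of the 43 members rose. In SmoM2, Mybl2 was at a Con mean of 12.6 ± 3.72 CPM (SD, n = 3) and a BCC mean of 16.2 ± 1.39 CPM (SD, n = 4, log2 fold change 0.36, SE 0.18, edgeR adjusted p = 0.176) and did not pass.

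In Gnas-eKO, Foxm1 was at a Con mean of 42.4 ± 7.36 CPM (SD, n = 3) and a BCC mean of 39.0 ± 9.18 CPM (SD, n = 4, log2 fold change -0.12, SE 0.21, edgeR adjusted p = 0.804). Mybl2 was there at a Con mean of 13.3 ± 2.40 CPM (SD, n = 3) and a BCC mean of 13.9 ± 3.18 CPM (SD, n = 4, log2 fold change 0.07, SE 0.22, edgeR adjusted p = 0.902). E2f1, a factor of G1/S genes, did not pass in any model, with log2 fold changes of 0.33 in PKI, -0.49 in Gnas-eKO and 0.17 in SmoM2. Rbl2, a pocket protein of the complex that represses cell cycle genes in resting cells, was the 1 that fell in PKI (-0.37), and E2f2 the 1 that fell in SmoM2 (-0.81).

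Among 13 cell cycle inhibitors, 2 rose and 4 fell in PKI and 2 rose and 4 fell in SmoM2, and 0 changed in Gnas-eKO. Over all genes, 18.7% were called higher and 15.8% lower in PKI, and 16.2% and 13.5% in SmoM2, so the counts of inhibitors that rose are near the background. Cdkn1a, which encodes the Cdk inhibitor p21, fell in SmoM2, at a Con mean of 311 ± 34.6 CPM (SD, n = 3) and a BCC mean of 181 ± 23.9 CPM (SD, n = 4, log2 fold change -0.78, SE 0.11, edgeR adjusted p = 0.000718). In PKI, Cdkn1a was at a Con mean of 301 ± 25.2 CPM (SD, n = 3) and a BCC mean of 256 ± 20.1 CPM (SD, n = 4, log2 fold change -0.23, SE 0.09, edgeR adjusted p = 0.0689), and in Gnas-eKO at a Con mean of 260.5 ± 15.5 CPM (SD, n = 3) and a BCC mean of 209 ± 25.2 CPM (SD, n = 4, log2 fold change -0.31, SE 0.13, edgeR adjusted p = 0.234), neither passing. The lowest of the called inhibitors in PKI were Sesn1 (-1.01) and Ccng2 (-0.69), and Btg2 (0.68) rose. Cdkn2a, which encodes Cdk4/6 and Mdm2 inhibitors, rose in PKI, standing at 0 to 0.124 CPM in Con, under the floor, and at 1.58 to 3.96 CPM in BCC. In SmoM2 the inhibitors that rose were Cdkn2a and Cdkn1c.

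**Figure D5:**
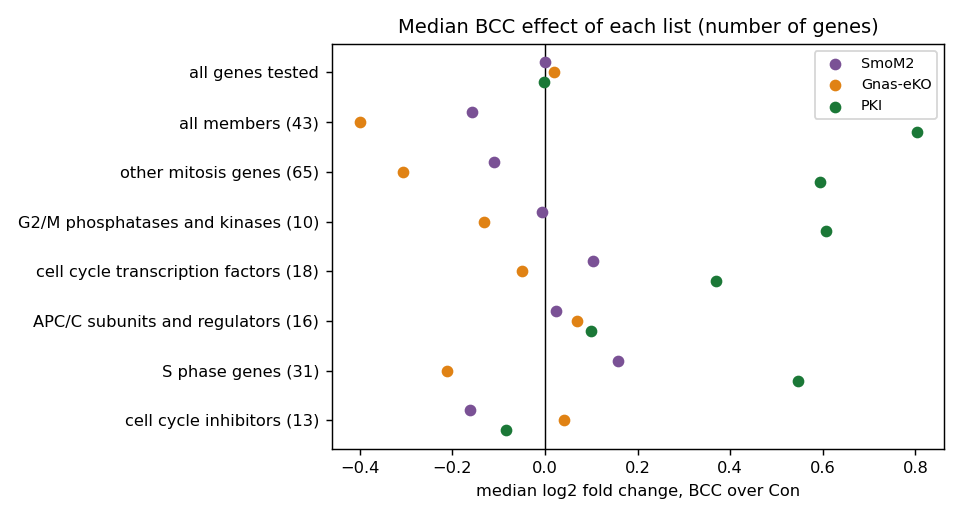
Median log2 fold change of BCC over Con (horizontal axis) of all genes tested, of the 43 members and of 6 other cell cycle lists (vertical axis, with the number of genes) in SmoM2 (purple), Gnas-eKO (orange) and PKI (green). The members have the highest median in PKI (0.80) and the lowest in Gnas-eKO (-0.40) of the lists shown, and the medians of all genes lie between -0.00 and 0.02.

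Markers of other cell types moved with some of these comparisons, and their counts stand against 18.7% of all genes called higher and 15.8% lower in PKI. In PKI, where the members rose, 4 of 6 leukocyte and myeloid markers rose and 0 fell, their summed level being 18.6 to 24.1 CPM in Con and 49.1 to 76.7 CPM in BCC, and 1 of the 6 was at 0 counts in each Con library. Of 5 T cell markers, 4 rose and 0 fell, with summed levels of 5.99 to 12.5 CPM in Con and 11.8 to 22.5 CPM in BCC. Of 6 basal keratinocyte markers, 4 fell and 0 rose in PKI, and of 4 melanocyte markers 3 fell. Of 5 hair matrix and placode markers, Lef1 (log2 fold change 3.07) and Msx2 (0.73) rose in PKI and Wnt10b (-0.95) fell. The mean log2 CPM of these 5 was higher in every PKI BCC library than in every Con library, by 0.80 between the means, where the members' mean differed by 0.79, while their summed level was 106 to 187 CPM in Con and 122 to 164 CPM in BCC. In SmoM2 and Gnas-eKO the mean of the 5 differed by -0.12 and -0.00 with overlapping groups. Of the 4 tested in SmoM2, 1 rose and 2 fell, with log2 fold changes from -0.96 to 1.43. Over all genes, 16.2% were called higher and 13.5% lower in SmoM2. Of 5 suprabasal keratinocyte markers, 1 rose, close to that share, and 2 fell in PKI. The part of these marker shifts in the members' change was not tested.

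Fibroblast markers rose in part in every model, in 3 of 6 in PKI, 2 of 6 in SmoM2 and 1 of 6 in Gnas-eKO, with summed levels of 84.0 to 143 CPM, 393 to 533 CPM and 94.6 to 579 CPM in BCC and of at most 42.4 CPM in Con. Over all genes, 18.7%, 16.2% and 1.46% were called higher in these models. In SmoM2, where 13.5% of all genes fell, 5 of 6 basal and 4 of 5 suprabasal keratinocyte markers fell, with no member rising. In Gnas-eKO 0 of 6 basal markers passed, and their mean log2 CPM lay lower in every BCC library than in every Con library. Within groups, the mean of the members correlated with that of the other mitosis genes at r = 0.98 over 21 libraries and with that of the S phase genes at 0.76, given as a description. For the marker lists r was 0.30 for basal keratinocytes, 0.04 for suprabasal keratinocytes, 0.00 for leukocytes and myeloid cells, -0.08 for endothelium, -0.12 for fibroblasts, -0.23 for hair matrix and placode, -0.28 for T cells and -0.36 for melanocytes. The part of these markers in the members' values was not tested.

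Of the 43 members, 20 overlap no other annotated gene of GENCODE M21 and 23 overlap at least 1, such as Exosc9 beside Ccna2 and Oip5 beside Nusap1. The preparation was stranded, but whether counting used the strand is not given in the sources used here, so reads of such pairs may not be told apart. Annotated pseudogene copies share the names of Ccnb1, Ccnb2 and Kif4.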

How the data were processed

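Bulk mRNA was sequenced from tail keratinocytes in 21 libraries, 3 Con and 4 BCC in each of 3 models. Per the submitters' processing notes, the tools were bcl2fastq 2.20, cutadapt 1.18, STAR 2.7.0f and Partek with the mm10 build; other settings, and whether counting used the strand, are not given in the sources used here. The deposited table holds the authors' estimated counts per gene, of which 32.3% of values are not whole (further than 1e-06 from a whole number), and they were rounded before testing. A second deposited table holds the authors' normalized expression signal, used only for an alternative (limma on log2 of the value plus 1). The members and all gene lists were chosen with earlier results of these data known.

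Within each model, genes passing filterByExpr were scaled by TMM and tested with edgeR 4.0.16 (robust quasi-likelihood test, R 4.3.3), BCC against Con, without a replicate block. Differences between models were interaction contrasts over 14 libraries. P-values were adjusted by Benjamini-Hochberg over all genes tested, and genes were called at an adjusted p under 0.05. CPM values are on the TMM scale, the mean log2 CPM uses a prior count of 2, and standard errors were derived from each fold change and its F statistic (absolute log2 value over the root of F). The procedure was tested on simulated data. Members given in full were Mki67, Top2a, Ccnb1, Cdk1, Cdc20, Plk1, Aurkb, Birc5, Bub1, Cenpa, Kif11 and Prc1, the 3 highest and 3 lowest log2 fold changes per model and the 2 highest and 2 lowest per contrast between models; of the other lists, the 2 highest and 2 lowest called genes and Foxm1, Mybl2, E2f1 and Cdkn1a. Kif20b, Mastl, Cdc25b and other members were named after their values were seen. Alternatives were DESeq2 1.42.0, its size factors, no filter, limma 3.58.1, a replicate block, a joint fit of 21 libraries and leaving out each library. Libraries of the same group differed beyond sampling noise in every pair (27 pairs, lowest chi-square per degree of freedom 8.93). Replicate numbers did not pair the SmoM2 libraries, and whether they pair those of Gnas-eKO and PKI is not settled. Gene positions are from GENCODE M21 and promoters from RefSeq (GRCm38.p6). Motifs were searched on both strands.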

Additional observations from a re-analysis of the deposited data

Results flagged for a closer look

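In 132 groups of 4 BCC libraries (43 members in 3 models, and their mean in each), 7 had 1 library far from the others, measured by its gap to the nearest library over the range of the group, about the share of 1 in 20 that chance gives, so these are values of single libraries and no result about the members. Gnas-eKO BCC replicate 3, the library with 8.53% mitochondrial counts, was the one apart in 5 of them. There Ccna2 was at 39.4 CPM (others 55.5 to 57.7), Ttk at 9.40 CPM (11.1 to 11.2), Mki67 at 133 CPM (215 to 229) and Top2a at 75.7 CPM (114 to 122). Mad2l1 was higher in that library, at 41.6 CPM (27.3 to 29.3). In SmoM2, BCC replicate 4 had Ttk at 15.6 CPM (others 11.6 to 12.0). In PKI, BCC replicate 3 had Ndc80 at 16.3 CPM (21.7 to 22.6).

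By the interaction tests, the BCC effect was higher in PKI than in SmoM2 in 42 members, against 12.6% of all genes. It was higher in PKI than in Gnas-eKO in 39 members, against 4.49% of all genes. Both contrasts use the same PKI libraries.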

How the results depend on the processing

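In PKI 41 to 43 members were called higher under each alternative run. In SmoM2 the number called lower was 5 with DESeq2, 3 with DESeq2 size factors in edgeR and 1 without the filter on low counts. It was 0 to 3 when single libraries were left out, with 0 to 1 called higher. In Gnas-eKO the number called lower was 4 with DESeq2, 1 without the filter, 12 in the joint fit of 21 libraries and 0 to 2 when single libraries were left out. The cause was not tested. Of 877 values of named members under alternatives, 813 kept direction and side of the threshold, 13 no longer passed, 23 newly passed and 28 changed sign.

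With a replicate block, 2 members were called lower in SmoM2 (Pttg1 and Ttk in place of Kif23 and Anln), 0 in Gnas-eKO and 43 higher in PKI, and in the contrasts between models 0 (Gnas-eKO minus SmoM2), 42 (PKI minus SmoM2) and 34 (PKI minus Gnas-eKO). The blocked score differences were -0.23, -0.40 and 0.79, and in SmoM2 Kif11 was -0.043 and Ncapg -0.0031 under the block. Deviations of same-numbered libraries correlated at -0.11 to -0.08 in SmoM2, 0.02 to 0.15 in Gnas-eKO and -0.05 to 0.24 in PKI. The mean correlation with libraries of other numbers was -0.01 to 0.14 in SmoM2, -0.16 to 0.04 in Gnas-eKO and -0.14 to -0.01 in PKI. The numbers thus do not pair the SmoM2 libraries. In Gnas-eKO and PKI some same-numbered libraries correlated more than others and some did not, so pairing there is not settled.

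Members near 0 changed sign when single libraries were left out. In SmoM2 the log2 fold changes then ran from -0.087 to 0.041 for Top2a, -0.19 to 0.042 for Cdk1, -0.20 to 0.036 for Cdc20, -0.23 to 0.024 for Aurkb, -0.22 to 0.0067 for Bub1, -0.054 to 0.18 for Cenpa, -0.057 to 0.14 for Kif11, -0.060 to 0.18 for Kif20a and -0.046 to 0.24 for Ncapg. In Gnas-eKO they ran from -0.19 to 0.074 for Cenpa, -0.25 to 0.17 for Ncapg and -0.14 to 0.15 for Pttg1. The difference Gnas-eKO minus SmoM2 of Kif23 ran from -0.023 to 0.21.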
